A study of Caenorhabditis elegans with 32 samples.

Results

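The nlp genes (neuropeptide-like protein genes) of Caenorhabditis elegans outside the nlp-29 cluster were followed in RNA from whole animals. Members were all genes of the count table with a symbol of nlp and a number, except nlp-27, nlp-28, nlp-29, nlp-30, nlp-31 and nlp-34. That left 70 of the 76 nlp genes, out of 46904 genes in the table. The study sequenced polyA RNA of hrde-1 mutants and wild type (WT) over 4 generations (P0, F1, F2 and F3), labelled hypoxia or normoxia, in 32 libraries that form 16 groups of 2. HRDE-1 is a nuclear Argonaute protein of the germ line that acts in inherited gene silencing, and the hrde-1 allele and the WT strain are not named in the labels. The protocol describes worms grown at 20 °C with food, with an exposure of L4 larvae to 0.1% oxygen for 16 h before return to ambient oxygen of about 20%. Age at collection is not stated, nor whether F1, F2 and F3 worms met low oxygen themselves, so hypoxia is used for those generations as the name of a group. The question is how the nlp genes differ by oxygen label, strain and generation.

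An nlp gene encodes a precursor protein that is cut in the secretory pathway into short peptides. The peptides are stored in dense core vesicles, mostly of neurons, and act on G protein-coupled receptors of other cells. Cutting at basic residues is done by proprotein convertases such as EGL-3, which needs the chaperone SBT-1. The carboxypeptidase EGL-21 then trims the ends, and amidating enzymes finish many peptides. In the worm such peptides set locomotion, feeding, egg laying, defecation and sleep. The nlp class was named for peptides that are neither insulin-like nor FMRFamide-like, so its members need not be related to each other. Some act outside neurons, as with nlp-40, whose peptide is released from the intestine.

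Library totals ran from 9722580 to 16555982 estimated counts, the F2 WT normoxia columns aside. Those 2 columns were means of 3 sets of counts that include the F1 and F3 WT normoxia libraries of the same replicate number. Their remainder, 3 times the column minus those libraries, is used below as F2 WT normoxia, which is an inference. Levels are CPM, counts per 1000000 counts after scaling of the libraries to each other. Folds and adjusted p values are from edgeR's quasi-likelihood test over all genes, with Benjamini-Hochberg adjustment and a threshold of 0.05. Rose and fell are used only of genes past that threshold. Whether replicates were separate cultures is not in the labels, and the p values cover no more than the scatter of these libraries, which may be technical. The hrde-1 transcript was present in both strains, at 344 to 612 CPM in hrde-1 libraries and 219 to 864 CPM in WT libraries, so it does not check the strain label.

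Some pairs of replicates stood apart in the nlp genes, with most members higher in the same library. Replicate 1 was the higher for 50 of 59 members in F2 hrde-1 normoxia, 49 in F2 WT normoxia and 45 in F1 WT normoxia. Replicate 2 was the higher for 49 members in P0 hrde-1 normoxia, 49 in F3 hrde-1 normoxia, 44 in F2 hrde-1 hypoxia and 42 in F3 WT normoxia. Correlation of log2 CPM over all genes was 0.947 in P0 hrde-1 normoxia, 0.944 in F2 hrde-1 normoxia and 0.908 in F3 hrde-1 normoxia, and at least 0.968 in the other groups measured, which leave out F2 WT normoxia. A list of cuticle genes also differed within some of these pairs, summing to 699.4 and 1476 CPM in P0 hrde-1 normoxia and to 220.8 and 1740 CPM in F3 hrde-1 normoxia. In F2 WT normoxia it went the other way from the nlp genes, with 212.5 and 332 CPM, and F2 hrde-1 hypoxia had 255.3 and 277.3 CPM. F3 hrde-1 hypoxia, not among the pairs named, had 380.8 and 1055 CPM. Results that rest on such libraries are given with and without them.

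All 70 members are annotated in WBcel235, with 19 on chromosome X, 14 on V, 11 on II, 10 on IV and 8 each on I and III. Of these, 59 passed the filter on low counts. The other 11 were nlp-19, nlp-22, nlp-23, nlp-32, nlp-46, nlp-48, nlp-52, nlp-60, nlp-62, nlp-63 and nlp-78, which held at most 78 counts each over all libraries. Among these, nlp-22 encodes a sleep-promoting peptide of the RIA neuron and had 2 counts in all. In the annotation 24 members overlap a gene of the opposite strand and 6 overlap a gene on their own strand. Counting by strand is not stated, so reads of such neighbours cannot be told apart.

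Most nlp genes were weakly expressed in whole worms. In 52 of 59 members the median over libraries was under 10 CPM, and in 18 it was under 1 CPM. The highest was nlp-77 (annotated as srlf-1, chromosome II, 7790591 to 7791375), with a median of 252 CPM and a range of 126 to 456 CPM. Its reads may include those of glr-4 on the opposite strand. Next came the intestinal gene nlp-40 (chromosome I, 11495 to 16837), whose peptide times the defecation motor program through AEX-2, with 84.6 CPM. It was followed by nlp-36 (chromosome III, 9488731 to 9489186, opposite dars-1) with 35.6 CPM. Per kb of exon the median levels were 403 CPM for nlp-77, 118 for nlp-40, 101 for nlp-36, 54.7 for nlp-33 and 50.9 for nlp-24. Of the summed CPM of all members, nlp-77 held 18.3% to 56.0% per library, nlp-40 8.9% to 20.1% and nlp-36 3.6% to 8.0%.

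The highest group of 42 of the 59 members was P0 WT normoxia. Another 6 (nlp-5, nlp-7, nlp-11, nlp-12, nlp-20 and nlp-41) were highest in F1 WT normoxia. A small set had its highest mean at the other end of the experiment, in F3 hrde-1 hypoxia, namely nlp-4, nlp-24, nlp-25, nlp-26, nlp-33, nlp-36 and nlp-77. The remaining 4 were nlp-16 and nlp-57, highest in P0 hrde-1 normoxia, and nlp-40 and nlp-73, highest in F2 hrde-1 hypoxia. The share of all genes that were highest in each group is not given, so these counts are descriptions and not traits particular to nlp genes.

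**Figure D1:**
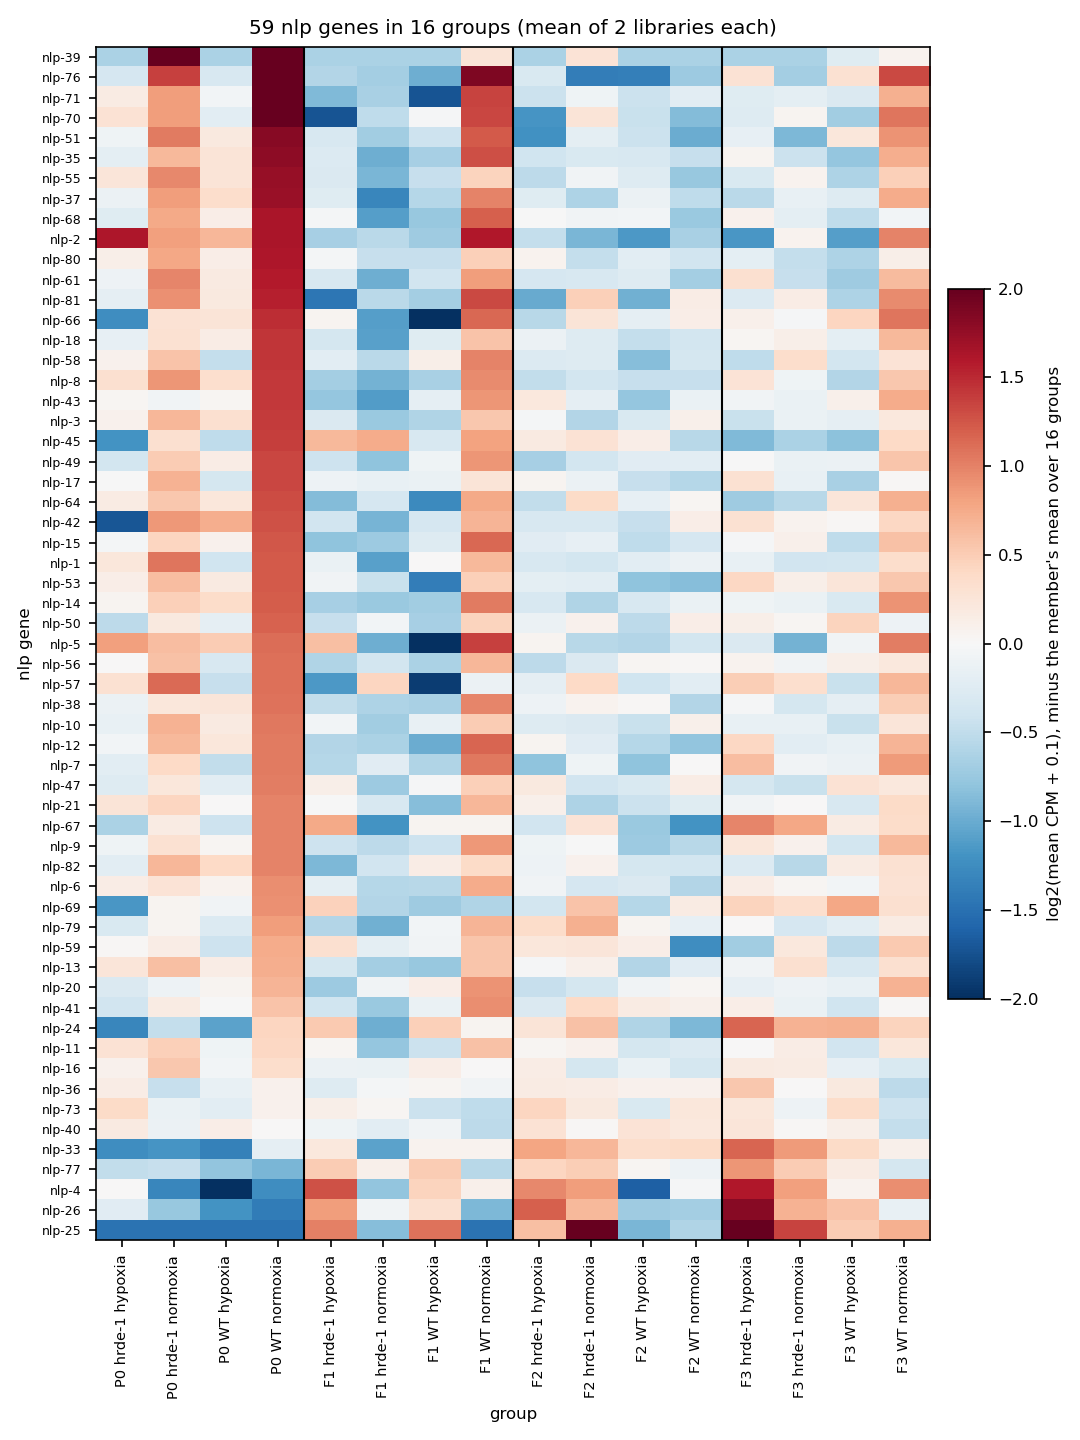
Level of the 59 tested nlp genes (rows) in 16 groups (columns, each the mean of 2 libraries), as log2(mean CPM + 0.1) minus the mean of that gene over the groups, with F2 WT normoxia as the remainder. Most rows are red in P0 WT normoxia, with weaker red in F1 and F3 WT normoxia, while the bottom rows, among them nlp-33, nlp-77, nlp-4, nlp-26 and nlp-25, are blue in P0.

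In P0 WT worms, those of the exposed generation, the nlp genes were lower after hypoxia. Of 59 members 30 fell and 0 rose, where 22.8% of the 15536 genes tested fell and 19.1% rose. The median log2 fold change was -1.19 over the members and -0.14 over all genes. The groups did not overlap in CPM, with hypoxia lower, for 53 of 59 members, against 44.5% of all genes. Leaving out the 3 most abundant members, the summed level of the other 67 was 203 and 212 CPM in hypoxia libraries and 461 and 449 CPM in normoxia libraries. In whole-worm RNA, fewer cells of a type and less RNA per cell cannot be told apart.

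The fall reached peptides of many kinds. For nlp-71 (chromosome IV, 6409557 to 6413582), which has the smallest adjusted p here, levels were 2.53 and 3.09 CPM in hypoxia and 14.3 and 12.8 CPM in normoxia. Its log2 fold change was -2.27 ± 0.49 (SE, edgeR adjusted p = 0.00142). The hypoxia pair lay far below the normoxia pair. For nlp-49 (chromosome X, 5904653 to 5905345), which encodes a ligand of the receptor SEB-3 in arousal, levels were 16.9 and 16.6 CPM against 39.6 and 36.4 CPM. That is a log2 fold change of -1.18 ± 0.33 (edgeR adjusted p = 0.00749), with both hypoxia libraries below both normoxia libraries. The receptor gene seb-3 fell as well, with 1.16 and 1.27 CPM in hypoxia against 4.78 and 5.87 CPM in normoxia. nlp-1, made in the olfactory neuron AWC as a ligand of NPR-11, had 2.31 and 2.38 CPM in hypoxia and 6.52 and 8.28 CPM in normoxia (log2 -1.65 ± 0.42, edgeR adjusted p = 0.00398).

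Among peptides of egg laying, nlp-3, which promotes it from the HSN neurons, had 6.57 and 6.5 CPM in hypoxia and 14.3 and 13.7 CPM in normoxia (log2 -1.09 ± 0.42, edgeR adjusted p = 0.0441). nlp-7, which inhibits it, fell too, with 2.53 and 1.59 CPM against 4.83 and 7.44 CPM (log2 -1.57 ± 0.47, edgeR adjusted p = 0.0118). The CCK-like nlp-18 had 6.21 and 7.93 CPM in hypoxia and 17.4 CPM in both normoxia libraries (log2 -1.30 ± 0.35, edgeR adjusted p = 0.00678). The GnRH-like nlp-47 had 2.67 and 3.33 CPM in hypoxia and 7.03 and 7.44 CPM in normoxia (log2 -1.27 ± 0.44, edgeR adjusted p = 0.0262). nlp-37, also called pdf-2, encodes a PDF peptide of locomotor arousal and had 3.61 and 3.17 CPM against 8.88 and 8.89 CPM (log2 -1.39 ± 0.51, edgeR adjusted p = 0.0338). In all 3 the hypoxia and normoxia libraries were apart.

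Other called members with a large fold change were scarce. nlp-39 (chromosome I, 12461656 to 12461895) had 0 counts in both hypoxia libraries and 1.07 and 1.57 CPM in normoxia. With a floor of 3 counts for the hypoxia group it was at least 11.6-fold lower in hypoxia (edgeR adjusted p = 0.019). It was at 0 in 23 of 32 libraries and passed the filter on low counts only through P0 normoxia libraries, where it was high. The filter thus favours this fall, and its p value is no independent support. nlp-58 (0.794 and 1.03 CPM against 3.65 and 3.69 CPM, log2 -2.0 ± 0.63) and nlp-17 (1.44 and 1.27 CPM against 4.78 and 4.31 CPM, log2 -1.73 ± 0.48) also fell. So did nlp-45 and nlp-76, at under 0.4 CPM in each hypoxia library. nlp-76 reached the level of the filter on low counts only in normoxia libraries, so the filter favours its fall too. The abundant nlp-40 had 84 and 95.2 CPM in hypoxia and 85.9 and 79.8 CPM in normoxia (log2 0.11 ± 0.18, edgeR adjusted p = 0.633). Its hypoxia and normoxia libraries overlapped.

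The count of 30 depends on having 4 libraries. It was 12 without P0 WT normoxia replicate 1, 10 without normoxia replicate 2, 5 without hypoxia replicate 1 and 8 without hypoxia replicate 2, all lower in hypoxia, while the median fold change stayed between -1.20 and -1.04. nlp-71 passed in all 4 of these refits (adjusted p 0.00782 to 0.0293). nlp-17 passed in 2 of them, nlp-39, nlp-58 and nlp-76 in 1 and nlp-45 in 0. With DESeq2's Wald test neither nlp-39 nor nlp-45 passed, and without a filter on low counts nlp-45 did not pass.

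In F1 WT most nlp genes were again lower in hypoxia. Of 59 members 20 fell and 1 rose in hypoxia over normoxia, where 8.54% of genes fell and 5.34% rose. The median log2 fold change was -1.16 over the members and -0.03 over all genes. The other 67 members summed to 189 and 181 CPM in hypoxia and 398 and 292 CPM in normoxia. P0 and F1 WT comparisons share no library. Members that fell in both were nlp-6, nlp-7, nlp-8, nlp-9, nlp-15, nlp-21, nlp-35, nlp-51, nlp-53, nlp-68, nlp-71, nlp-76 and nlp-81. With 30 members fallen in P0 and 20 in F1, some overlap is bound to arise. The share of all genes that fell in both is not given, so the overlap is a description.

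In F1 WT, nlp-71 had 1.11 and 0.516 CPM in hypoxia and 11 and 4.12 CPM in normoxia (log2 -3.21 ± 0.56, edgeR adjusted p = 0.000631). Its normoxia libraries differed from each other more than in P0, and both stayed above the hypoxia libraries. nlp-12, a CCK-like peptide of the stretch-sensing DVA neuron that acts through CKR-2 on motor neurons, had 1.94 and 1.8 CPM in hypoxia and 12.5 and 4.98 CPM in normoxia (log2 -2.22 ± 0.53, edgeR adjusted p = 0.00756). Its receptor gene ckr-2 had 1.76 and 1.72 CPM in hypoxia and 4.12 and 4.59 CPM in normoxia (log2 -1.32 ± 0.38, edgeR adjusted p = 0.0244), so both genes of this pair were lower. Of 13 receptor genes tested, 2 fell (ckr-2 and gnrr-6) and 1 rose (sprr-2). The orcokinin-like nlp-14 (chromosome X, 8917423 to 8919423), known for a part in sleep, had 4.62 and 4.55 CPM in hypoxia and 19.4 and 11.6 CPM in normoxia (log2 -1.75 ± 0.36, edgeR adjusted p = 0.00269). The other orcokinin gene, nlp-15, had 5.83 and 8.16 CPM in hypoxia and 22.7 and 14.8 CPM in normoxia (log2 -1.42 ± 0.36, edgeR adjusted p = 0.0116).

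nlp-8, a peptide gene of the sleep-inducing ALA neuron, had 3.7 and 3.61 CPM in F1 WT hypoxia and 14.2 and 8.25 CPM in normoxia (log2 -1.62 ± 0.39, edgeR adjusted p = 0.00823). The myoinhibitory peptide gene nlp-38 had 1.57 and 1.46 CPM in hypoxia and 5.2 and 4.59 CPM in normoxia (log2 -1.68 ± 0.39, edgeR adjusted p = 0.00574). nlp-5 and nlp-66 were at 0 in both hypoxia libraries and were at least 9.03-fold and 6.23-fold lower there than in normoxia, against the floor of 3 counts. nlp-76 had 2 counts in hypoxia and 29 in normoxia, which puts hypoxia 13.6-fold lower (95% counting interval 3.43 to 117), though its reads may include those of nhr-17 on its strand. nlp-66 and nlp-76 reached the level of the filter on low counts only in normoxia libraries. The filter thus favours their falls in hypoxia, as it did for nlp-39 in P0. nlp-2 (log2 -2.44 ± 0.69, edgeR adjusted p = 0.0217) and nlp-68 (log2 -2.11 ± 0.60, edgeR adjusted p = 0.0237) also fell. Against all of these, nlp-77 rose, with 328 and 373 CPM in hypoxia and 152 and 184 CPM in normoxia (log2 1.06 ± 0.19, edgeR adjusted p = 0.00102). Its change was opposite to that of the 20 members that fell.

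Without F1 WT normoxia replicate 1, the library in which most members were high, 5 members fell. Without normoxia replicate 2 it was 18, without hypoxia replicate 1 it was 6, and without hypoxia replicate 2 it was 8. nlp-77 rose in each of these 4 refits and nlp-71 fell in each. nlp-12, nlp-68 and nlp-76 passed in 1 of the 4 refits, the one without normoxia replicate 2, and nlp-2 and nlp-5 in 0. Without a filter nlp-76 did not pass.

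**Figure D2:**
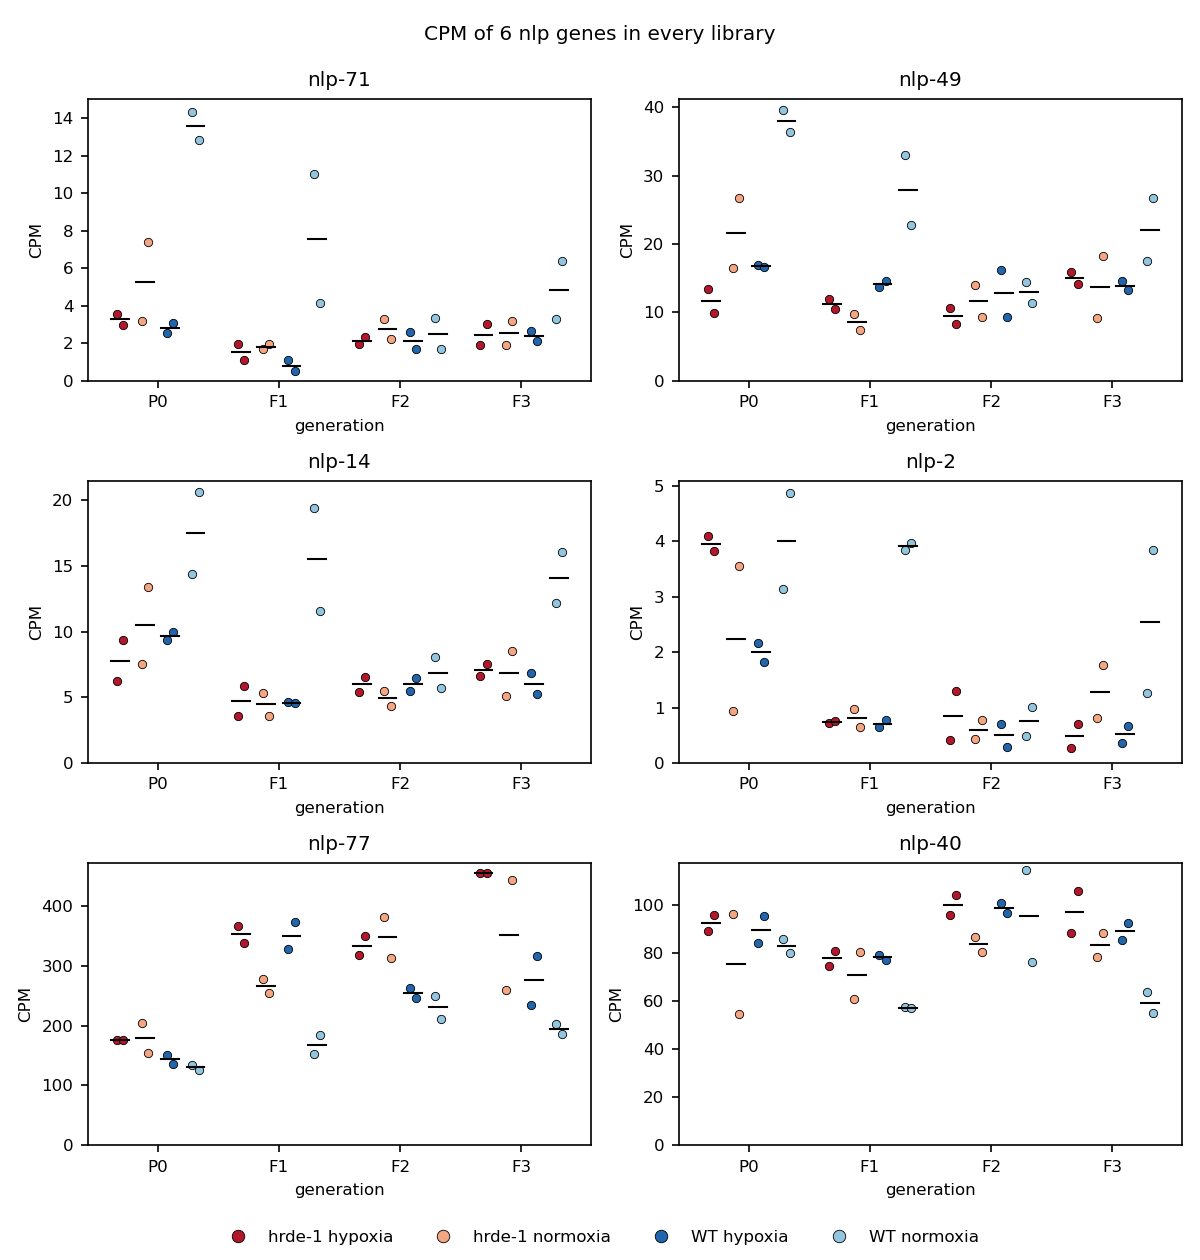
CPM of 6 nlp genes in every library, by generation from P0 to F3, with 2 points (libraries) and a line (mean) for each group and F2 WT normoxia as the remainder. nlp-71, nlp-49 and nlp-14 are highest in WT normoxia in P0, F1 and F3, nlp-2 in hrde-1 hypoxia lies near 4 CPM in P0 only, and nlp-77 lies between 126 and 205 CPM in P0 and reaches 456 CPM in F3.

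In F2 WT, with the remainder as normoxia, 0 members passed in edgeR's quasi-likelihood test and 0 in DESeq2's Wald test, and 3 had an unadjusted p under 0.05. The share of all genes called was 0.0%, with 318 genes under an unadjusted 0.05. The members' median log2 fold change was -0.03, and their other 67 summed to 189 and 164 CPM in hypoxia and 219 and 152 CPM in normoxia. The remainder thus lay near the hypoxia libraries and below the WT normoxia libraries of P0, F1 and F3.

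In F3 WT, 2 members fell and 1 rose, where 3.57% of genes fell and 3.05% rose. The median log2 fold change was -0.70 over members and -0.14 over all genes, and 48 members were below 0. nlp-14 had 6.87 and 5.22 CPM in hypoxia and 12.2 and 16.1 CPM in normoxia (log2 -1.22 ± 0.35, edgeR adjusted p = 0.0406). nlp-2, an RPamide gene on chromosome X (2343947 to 2344766, opposite T01B6.1), had 0.368 and 0.662 CPM in hypoxia and 1.26 and 3.84 CPM in normoxia (log2 -2.31 ± 0.69, edgeR adjusted p = 0.049). nlp-73, annotated as cthd-1, had 10.1 and 10.4 CPM in hypoxia and 6.49 and 5.39 CPM in normoxia (log2 0.79 ± 0.23, edgeR adjusted p = 0.0427). The pairs of all 3 were apart, but nlp-14 and nlp-73 passed in 0 of 4 refits without a library and nlp-2 in 1. The count of members called was 3 without F3 WT normoxia replicate 1, and 0 without normoxia replicate 2 or without either hypoxia replicate. With the replicate number as a block nlp-73 did not pass, nor did it without a filter. Fitted on the compared groups alone, neither nlp-73 nor nlp-2 passed.

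In hrde-1 mutants the hypoxia label went with few calls. In P0, 1 member fell and 0 rose, where 4.46% of genes fell and 1.38% rose. The median log2 fold change was -0.58 over members and -0.02 over all genes. The member was nlp-42, a myoinhibitory peptide gene, with 0.227 and 0.0851 CPM in hypoxia and 0.672 and 2.21 CPM in normoxia (log2 -3.09 ± 0.78, edgeR adjusted p = 0.0248). The other 67 members summed to 195 and 209 CPM in hypoxia and 221 and 345 CPM in normoxia, so the normoxia replicates lay apart. Without P0 hrde-1 normoxia replicate 1, 5 members fell and 1 rose, and without normoxia replicate 2 or either hypoxia replicate none passed. In F1, F2 and F3 hrde-1 worms 0 members passed in edgeR's test, with 7, 2 and 0 at an unadjusted p under 0.05. DESeq2's Wald test called 2, 0 and 0. The share of all genes called was 8.35% in F1, 0.0% in F2 and 0.0129% in F3, and the members' median log2 fold changes were 0.39, -0.04 and 0.19.

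The difference between the strains in the hypoxia effect was tested as an interaction, hrde-1 minus WT. In F1 it was called above 0 for 15 of 59 members and below 0 for 0, where 8.72% of genes were called above 0 and 3.92% below. By sign alone it was below 0 for 8 members. The median difference was 1.52 on the log2 scale over members and 0.27 over all genes. For all genes the calls were 1355 above and 609 below, and with DESeq2's size factors 1231 above and 934 below. The 15 include nlp-5 and nlp-66, for which WT hypoxia was at 0. As nlp-66 reached the level of the filter on low counts only in normoxia libraries, the filter favours its call. In the other 13 the WT fold change lay between -3.21 and -1.02 and the hrde-1 fold change between -0.25 and 1.23, both on the log2 scale.

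For nlp-21 the hypoxia libraries had 10.8 and 9.7 CPM in hrde-1 worms against 7 and 9.45 CPM in hrde-1 normoxia, and 6.01 and 5.33 CPM in WT against 19.3 and 13.4 CPM in WT normoxia. The difference in effect was 1.84 ± 0.41 on the log2 scale (edgeR adjusted p = 0.00977). For nlp-13 the hrde-1 libraries had 6.82 and 7.54 CPM in hypoxia and 6.11 and 5.32 CPM in normoxia, and WT had 5.64 and 5.07 CPM in hypoxia and 13 and 13.9 CPM in normoxia, a difference of 1.65 ± 0.37 (edgeR adjusted p = 0.00995). In both genes WT normoxia was the group that lay apart, above the other 3 groups of F1. nlp-37 differed by 2.73 ± 0.80 (edgeR adjusted p = 0.0331), nlp-14 by 1.83 ± 0.52 (edgeR adjusted p = 0.0288) and nlp-8 by 1.89 ± 0.56 (edgeR adjusted p = 0.0359). Their hrde-1 libraries lay between 0.76 and 5.84 CPM in F1, and their WT normoxia libraries between 4.2 and 19.4 CPM.

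The F1 count rests on single libraries. It was 14 without F1 WT normoxia replicate 2 and 2 without normoxia replicate 1, and 5 and 2 without WT hypoxia replicates 1 and 2. Among hrde-1 libraries it was 3 and 2 without normoxia replicates 1 and 2, and 6 and 8 without hypoxia replicates 1 and 2. The members' median stayed between 1.30 and 1.67 on the log2 scale in these refits. In P0 and in F3 0 members differed in edgeR's test, with 5 and 8 at an unadjusted p under 0.05 and 0 and 0 by DESeq2's Wald test. The share of all genes called there was 0.328% in P0 and 0.657% in F3, and the members' median differences were 0.62 and 0.76 on the log2 scale.

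**Figure D3:**
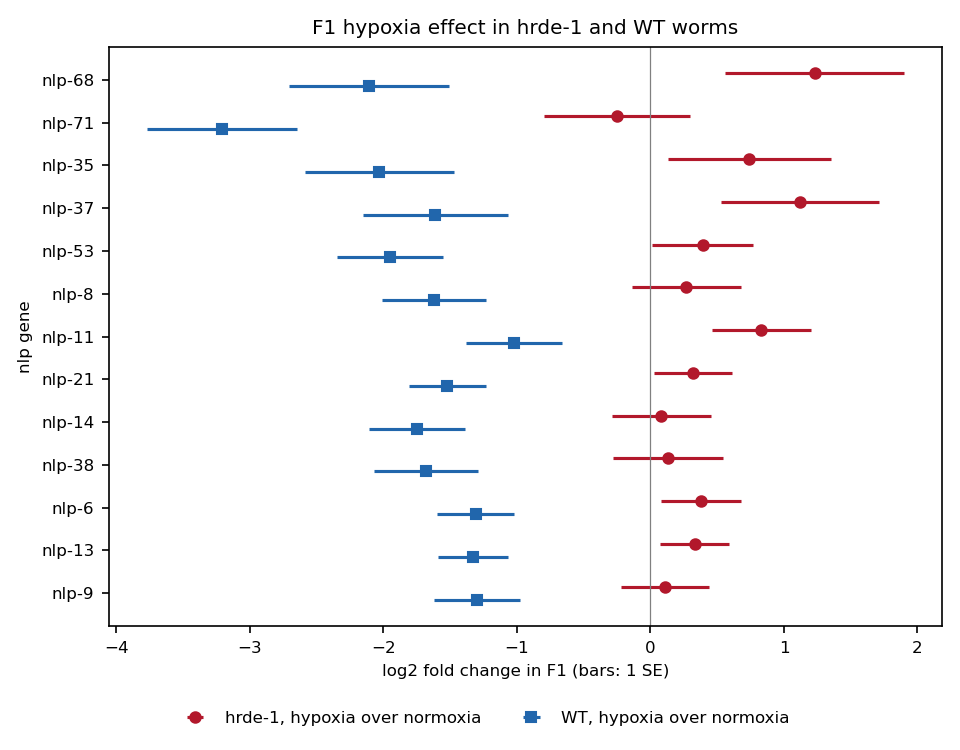
Log2 fold change of hypoxia over normoxia in F1 for the 13 nlp genes with a called strain difference and no group at 0, in hrde-1 (circles) and WT (squares), with bars of 1 SE. WT values lie between -3.21 and -1.02 and hrde-1 values between -0.25 and 1.23.

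Strains were next compared within normoxia. In F1 normoxia, 34 of 59 members fell and 1 rose in hrde-1 worms relative to WT, where 22.2% of genes fell and 12.3% rose. This comparison, the F1 WT hypoxia comparison and the interaction share the F1 WT normoxia libraries. The groups did not overlap in CPM, with hrde-1 lower, for 47 of 59 members, against 46.3% of all genes. The median log2 fold change was -1.35 over members and -0.24 over all genes. The other 67 members summed to 143 and 137 CPM in hrde-1 normoxia and 398 and 292 CPM in WT normoxia. Of the 13 tested genes in the list of ligands with a known receptor, 11 fell, among them nlp-49, nlp-14, nlp-8 and nlp-18.

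The SEB-3 ligand nlp-49 had 9.74 and 7.39 CPM in F1 hrde-1 normoxia and 33.1 and 22.7 CPM in F1 WT normoxia (log2 -1.70 ± 0.34, edgeR adjusted p = 0.00125). The orcokinin genes fell together, with nlp-15 at 4.78 and 5.32 CPM against 22.7 and 14.8 CPM (log2 -1.89 ± 0.37, edgeR adjusted p = 0.00104) and nlp-14 at 5.31 and 3.58 CPM against 19.4 and 11.6 CPM (log2 -1.79 ± 0.36, edgeR adjusted p = 0.0014). In all of these both hrde-1 libraries lay below both WT libraries. The PDF gene nlp-37 had 1.24 and 0.76 CPM in hrde-1 worms and 6.45 and 4.2 CPM in WT (log2 -2.38 ± 0.57, edgeR adjusted p = 0.00447). nlp-35 had 1.06 and 0.543 CPM against 5.82 and 2.65 CPM (log2 -2.36 ± 0.58, edgeR adjusted p = 0.00518). nlp-68 (log2 -2.54 ± 0.63), nlp-43 (log2 -2.15 ± 0.60) and nlp-2 (log2 -2.24 ± 0.68) fell as well. nlp-76 had 3 counts in hrde-1 normoxia and 29 in WT normoxia, 8.25-fold lower in hrde-1 (95% counting interval 2.56 to 42.3). As nlp-76 passed the filter on low counts through WT normoxia libraries, where it was high, the filter favours this fall too.

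nlp-77 was again the exception, with 277 and 254 CPM in F1 hrde-1 normoxia and 152 and 184 CPM in F1 WT normoxia (log2 0.66 ± 0.19, edgeR adjusted p = 0.0135). The number that fell was 10 without F1 WT normoxia replicate 1, 25 without WT replicate 2, 15 without hrde-1 replicate 1 and 12 without hrde-1 replicate 2. nlp-37 passed in 3 of these 4 refits, nlp-77, nlp-76, nlp-68, nlp-35 and nlp-43 in 2 and nlp-2 in 0. Without a filter nlp-76 did not pass.

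In P0 normoxia 3 members fell and 0 rose in hrde-1 worms, where 7.32% of genes fell and 15.2% rose. The median log2 fold change was -0.69 over members and -0.06 over all genes, and 53 of 59 members were below 0. nlp-18 had 5.51 and 10.3 CPM in hrde-1 and 17.4 CPM in both WT libraries (log2 -1.14 ± 0.35, edgeR adjusted p = 0.0241). nlp-71 had 3.16 and 7.42 CPM in hrde-1 and 14.3 and 12.8 CPM in WT (log2 -1.36 ± 0.47, edgeR adjusted p = 0.0436). nlp-43 had 1.21 and 1.89 CPM in hrde-1 and 5.17 and 3.86 CPM in WT (log2 -1.54 ± 0.54, edgeR adjusted p = 0.0438). For each of these, hrde-1 replicate 1 was the lower of the mutant pair. Without hrde-1 replicate 2, 16 members fell and 1 rose, without hrde-1 replicate 1, 1 fell, and without either WT replicate 0 were called. Adjusted p over those refits ran from 0.00838 to 0.306 for nlp-18, from 0.0132 to 0.399 for nlp-71 and from 0.0536 to 0.31 for nlp-43. nlp-71 did not pass with the replicate number as a block, nlp-43 without a filter or with the remainder in the fit, and none of the 3 with the compared groups alone.

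In F2 normoxia, with the remainder as WT, 0 members passed in edgeR's test, 5 had an unadjusted p under 0.05 and DESeq2's Wald test called 1, where edgeR called 4.51% of all genes. Without F2 hrde-1 normoxia replicate 2, 4 members passed. In F3 normoxia 1 rose and 1 fell, where 4.45% and 4.42% of genes did. The median log2 fold change there was -0.49 over members and -0.06 over all genes, and 45 of 59 members were below 0. nlp-77 had 260 and 444 CPM in hrde-1 and 203 and 185 CPM in WT (log2 0.86 ± 0.19, edgeR adjusted p = 0.00694). nlp-51 had 0.583 and 1.01 CPM in hrde-1 and 2.72 and 3.28 CPM in WT (log2 -1.89 ± 0.52, edgeR adjusted p = 0.0245). The mutant replicates of nlp-77 differed widely, and both lay above WT. Without F3 hrde-1 normoxia replicate 2, 9 members fell and nlp-77 did not pass. Without F3 WT normoxia replicate 2 none passed, and without hrde-1 replicate 1 or WT replicate 1 nlp-77 was the 1 call. Fitted on the compared groups alone neither passed.

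Within hypoxia few strain differences were called. Members called were 0 in P0, F1 and F2 and 1 in F3 in edgeR's test, with 4, 6, 4 and 4 at an unadjusted p under 0.05 and 0, 0, 3 and 1 by DESeq2's Wald test. Of all genes 2.14%, 1.98%, 6.43% and 10.8% were called in P0, F1, F2 and F3. The member called in F3 was nlp-77, with 455 and 456 CPM in hrde-1 and 235 and 317 CPM in WT (log2 0.72 ± 0.19, edgeR adjusted p = 0.0232). It passed without F3 WT hypoxia replicate 2, and did not pass without WT replicate 1 (adjusted p up to 0.275 over the refits) or without either hrde-1 replicate.

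**Figure D4:**
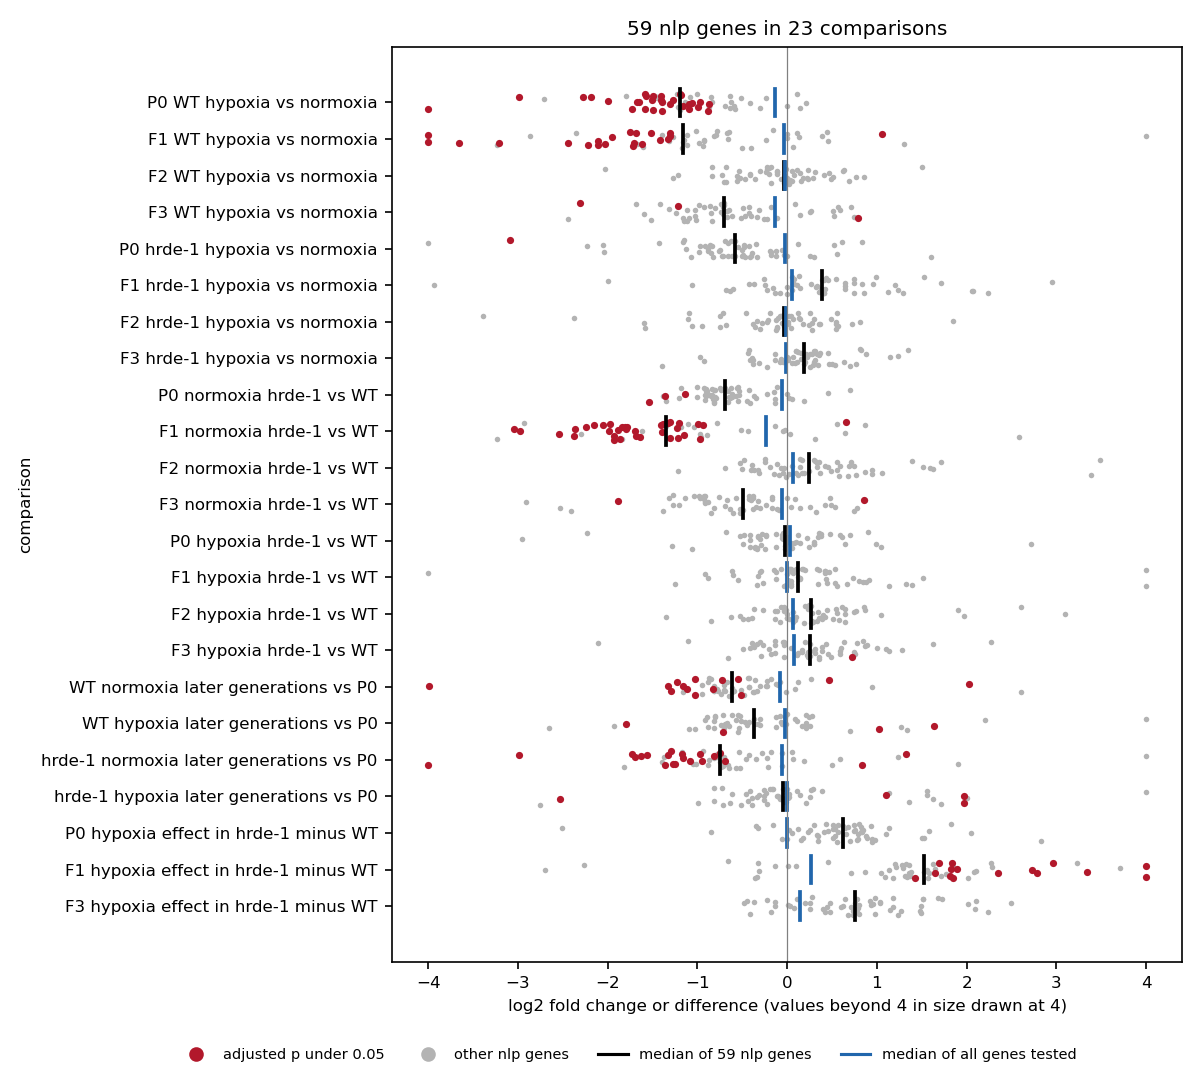
Log2 fold changes (for the last 3 rows, differences between them) of the 59 tested nlp genes in each of 23 comparisons, as red points where the edgeR adjusted p is under 0.05 and grey points otherwise, with black lines for the median of the members and blue lines for the median of all genes tested. Members lie left of all genes most clearly in P0 WT (median -1.19), F1 WT (-1.16) and F1 normoxia hrde-1 vs WT (-1.35), and right of them in the F1 interaction (1.52).

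Generations were compared as the mean of F1, F2 and F3 over P0, or of F1 and F3 for WT normoxia. No label gives a harvest date, so generation and harvest cannot be told apart. In WT normoxia 12 members fell and 2 rose in later generations, where 21.4% of genes fell and 22.9% rose. The median log2 fold change was -0.61 over members and -0.08 over all genes, and 52 of 59 members were below 0. Of the marker lists, 17 of 24 neuronal and 9 of 27 cuticle genes fell in the same comparison, while 17 of 20 oocyte and eggshell genes and 10 of 17 muscle genes rose. The neuronal list summed to 312.1 and 282.6 CPM in F1 and 297.6 and 347.9 CPM in F3, against 517.6 and 589.5 CPM in P0. nlp-80 had 11.4 and 8.25 CPM in F1 and 5.73 and 9.61 CPM in F3, against 22.6 and 21 CPM in P0 (log2 -1.33 ± 0.27, edgeR adjusted p = 0.000504). nlp-55 fell by 1.29 ± 0.32 on the log2 scale (edgeR adjusted p = 0.00292). Both passed in all 6 refits without a library. Both sets of later libraries lay below P0. nlp-77 and nlp-4 rose. nlp-4 had 1.25 and 0.467 CPM in F1 and 1.05 and 2.17 CPM in F3, against 0.225 and 0.336 CPM in P0 (log2 2.03 ± 0.75, edgeR adjusted p = 0.0347). nlp-17, nlp-71, nlp-3, nlp-18, nlp-40, nlp-73, nlp-68, nlp-53 and nlp-50 fell as well, and so did nlp-39, which was at 1.07 and 1.57 CPM in P0. As nlp-39 passed the filter on low counts only through P0 normoxia libraries, the filter favours its fall here too. The numbers of members that fell and rose were 3 and 0 without either P0 replicate, 9 and 1 without F1 replicate 1 or F3 replicate 2, 3 and 1 without F1 replicate 2 and 5 and 1 without F3 replicate 1. nlp-4, nlp-77, nlp-17, nlp-71 and nlp-3 passed in 2 of the 6 refits and nlp-39 in 3. With DESeq2's Wald test nlp-39 did not pass, and with a filter of at least 5 CPM in 2 libraries nlp-77 did not pass.

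In WT hypoxia 2 members rose and 2 fell in F1 to F3 relative to P0, where 7.26% of genes rose and 1.85% fell. The median log2 fold change was -0.37 over members and -0.02 over all genes. Of the muscle list 9 of 17 genes rose, summing to 10940 to 14190 CPM over the 6 later libraries and to 6443 and 6383 CPM in P0, and 0 of 24 neuronal markers passed. nlp-77 had 235 to 373 CPM over the 6 later libraries against 150 and 136 CPM in P0 (log2 1.02 ± 0.17, edgeR adjusted p = 0.000687), and it passed in all 8 refits without a library. nlp-33 had 13.8 to 24.4 CPM against 6.5 and 7.06 CPM (log2 1.64 ± 0.38, edgeR adjusted p = 0.00804) and did not pass without either P0 WT hypoxia replicate. The 2 that fell were nlp-2 (log2 -1.80 ± 0.52, edgeR adjusted p = 0.0332), which passed in 2 of 8 refits, and nlp-13 (log2 -0.71 ± 0.20, edgeR adjusted p = 0.0299), which passed in 3 and did not pass without a filter. Without either P0 WT hypoxia replicate 1 member rose and 0 fell. The number that fell was 0 without F1 replicate 2 or F2 replicate 2 and 1 without F1 replicate 1 or F3 replicate 2.

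In hrde-1 normoxia 19 members fell and 2 rose, where 14.2% of genes fell and 10.1% rose. With them fell 13 of 24 neuronal markers, 9 of 14 release genes, 6 of 11 processing genes and 13 of 27 cuticle genes, and 8 of 17 muscle genes rose and 2 fell. The neuronal list summed to 260.3 to 388.7 CPM over the 6 later libraries and to 368.8 and 451.5 CPM in P0. The AWC peptide gene nlp-1 had 1.3 to 3.17 CPM over the 6 later libraries against 4.1 and 9.23 CPM in P0 (log2 -1.73 ± 0.31, edgeR adjusted p = 0.000856). nlp-51, nlp-37, nlp-8, nlp-55 and nlp-80 fell by 1.25 to 1.70 on the log2 scale. nlp-77 had 254 to 444 CPM against 205 and 153 CPM (log2 0.83 ± 0.17, edgeR adjusted p = 0.00153). P0 hrde-1 normoxia replicate 2 decides this comparison. Without it 0 members were called, with a median log2 fold change of -0.18, against -0.75 with all libraries. Without replicate 1, 25 fell and 3 rose. Fitted on the compared groups alone, 0 members were called.

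In hrde-1 hypoxia 3 members rose and 1 fell, where 11.4% of genes rose and 7.02% fell. Of the muscle list 13 of 17 genes rose and 0 fell, with sums of 14610 to 20730 CPM over the 6 later libraries and 6663 and 7009 CPM in P0, and 8 of 20 oocyte and eggshell genes fell. The part of these tissue markers in the differences between generations was not tested. nlp-77 had 318 to 456 CPM against 176 and 175 CPM in P0 (log2 1.10 ± 0.17, edgeR adjusted p = 0.000425). The RPamide gene nlp-2 had 0.269 to 1.29 CPM against 4.09 and 3.83 CPM (log2 -2.53 ± 0.49, edgeR adjusted p = 0.00199). Both passed in all 8 refits without a library, and no later library reached the P0 range of either gene. The others that rose were nlp-33 and nlp-24. The number that rose was 1 without P0 hrde-1 hypoxia replicate 2, and 2 without P0 replicate 1, F2 replicate 2 or F3 replicate 2.

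nlp-33 and nlp-24 belong, with nlp-25, nlp-26 and nlp-32, to the YGGW peptide family, which is related to the antimicrobial genes of the nlp-29 cluster. nlp-24 (chromosome V, 11616376 to 11616828, opposite glb-15) encodes opioid-like peptides that act through NPR-17. In hrde-1 hypoxia it had 6.06 and 9.1 CPM in P0, 24.9 and 29.5 CPM in F1, 17.6 and 27.4 CPM in F2 and 35.3 and 49.2 CPM in F3. The log2 fold change of later generations over P0 was 1.97 ± 0.60 (edgeR adjusted p = 0.0271), and it passed in 4 of 8 refits, not without either P0 replicate, F2 replicate 2 or F3 replicate 2. nlp-33 (chromosome V, 11147346 to 11147737) had 8.04 and 6.72 CPM in P0 hrde-1 hypoxia, and its lowest later library had 19.6 CPM and its highest 49.1 CPM (log2 1.97 ± 0.38, edgeR adjusted p = 0.00188). It did not pass without P0 hrde-1 hypoxia replicate 2. In P0 WT it had fallen in hypoxia, with 6.5 and 7.06 CPM against 18.9 and 12 CPM in normoxia (log2 -1.19 ± 0.42, edgeR adjusted p = 0.0295).

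Replicates of this family were far apart in hrde-1 normoxia. In F3, nlp-24 had 8.82 and 52.7 CPM there and nlp-33 had 18.6 and 44.7 CPM. In F2, nlp-24 had 49.6 and 7.18 CPM. nlp-25 (chromosome V, 19606180 to 19608419) had 0 counts in all 8 P0 libraries. With 3 counts as the floor for P0, pooled later levels were at least 6.43-fold higher in hrde-1 hypoxia, 5.59-fold in hrde-1 normoxia, 2.5-fold in WT hypoxia and 2.4-fold in WT normoxia, and none of these was called by edgeR. It was at 0 in 15 of 32 libraries, and each of these comparisons holds a later library at 0. In F2 hrde-1 normoxia it had 1.89 and 0.11 CPM. It passed the filter on low counts only through later libraries, where it was high, so the filter favours a rise. Its neighbour nlp-26 (chromosome V, 19613461 to 19614534, opposite Y43F8C.3) lay between 0.727 and 2.04 CPM in P0 and had 6.72 and 9.58 CPM in F3 hrde-1 hypoxia, its highest group. In hrde-1 hypoxia later generations were not called over P0 for nlp-26 (edgeR adjusted p = 0.0555). Some later libraries lay within the P0 range, as in F2 WT hypoxia with 1.33 CPM in both.

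Genes that make and release neuropeptides were set beside the nlp genes. In P0 WT, 8 of 11 genes of peptide processing fell in hypoxia and 1, the convertase gene bli-4, rose. The convertase gene egl-3 had 113 and 111 CPM in hypoxia and 218 and 189 CPM in normoxia (log2 -0.86 ± 0.22, edgeR adjusted p = 0.00394), and its chaperone sbt-1 had 28.9 and 28.4 CPM against 70.7 and 75.2 CPM (log2 -1.35 ± 0.23, edgeR adjusted p = 0.000206). Of 14 genes of vesicle release 12 fell, and of 13 receptor genes 3 fell (seb-3, ckr-2 and pdfr-1). Of 24 neuronal markers 18 fell, among them the synaptic vesicle gene rab-3, with 5.78 and 5.63 CPM against 24.1 and 27 CPM (log2 -2.16 ± 0.31, edgeR adjusted p = 6.11e-05).

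In F1 WT, 6 of 11 processing genes fell and 0 rose. egl-3 had 72.4 and 79.2 CPM in hypoxia and 233 and 178 CPM in normoxia (log2 -1.44 ± 0.22, edgeR adjusted p = 0.000195). ida-1, which encodes a membrane protein of dense core vesicles, had 35.1 and 34.8 CPM against 110 and 96.7 CPM (log2 -1.56 ± 0.22, edgeR adjusted p = 7.44e-05). Of 24 neuronal markers 3 fell and 1 rose, with a median log2 fold change of -0.35, and the difference between the lists was not tested. rab-3 had 4.35 and 4.73 CPM in hypoxia and 5.38 and 4.2 CPM in normoxia (log2 -0.07 ± 0.32, edgeR adjusted p = 0.914). In F3 WT 5 processing genes fell, with egl-21 at log2 -1.0 ± 0.21 (edgeR adjusted p = 0.00795), and 1 neuronal marker fell. In F1 normoxia, 7 processing genes and 4 neuronal markers fell in hrde-1 worms relative to WT, and 0 rose. Of 13 receptor genes 2 fell there (ckr-2 and trhr-1) and 1 rose (sprr-2). The F1 interaction was called above 0 for 6 processing genes, including egl-3 (1.83 ± 0.31, edgeR adjusted p = 0.00154), and for the release gene ida-1 (2.08 ± 0.30, edgeR adjusted p = 0.000417). These lists were chosen with earlier results of these data known, so the counts are descriptions.

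Markers of other tissues moved with some of the same groups. The summed level of 24 neuronal markers was 284 and 287 CPM in P0 WT hypoxia and 517.6 and 589.5 CPM in P0 WT normoxia. In F1 WT it was 272.8 and 270.1 CPM in hypoxia and 312.1 and 282.6 CPM in normoxia. The oocyte and eggshell list summed to 21960 and 20440 CPM in P0 WT hypoxia and 8953 and 6202 CPM in normoxia, and 20 of its 20 genes rose. In F1 normoxia it summed to 25750 and 25830 CPM in hrde-1 worms and 13540 and 15510 CPM in WT, and 14 rose. The cuticle list summed to 529 and 665.1 CPM in P0 WT hypoxia and 1897 and 2531 CPM in normoxia, with 13 of 27 genes lower and 3 higher past the threshold. In F1 normoxia it summed to 188.5 and 190.2 CPM in hrde-1 worms and 1019 and 736.2 CPM in WT, and 21 fell and 1 rose. The muscle list, with 5 of 17 genes lower and 2 higher past the threshold in P0 WT hypoxia, summed in F1 normoxia to 8117 and 8204 CPM in hrde-1 worms and 12390 and 13190 CPM in WT, and 7 fell. Of 11 intestinal markers 5 fell and 2 rose in that comparison, and 3 fell and 3 rose in P0 WT hypoxia. The F1 interaction was called above 0 for 6 muscle, 4 cuticle and 3 neuronal genes, and called below 0 for 3 oocyte and eggshell genes and 1 cuticle gene. No neuronal, muscle, oocyte or cuticle marker was at 0 in a whole group. The part of tissue makeup and stage in the nlp values was not tested.

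**Figure D5:**
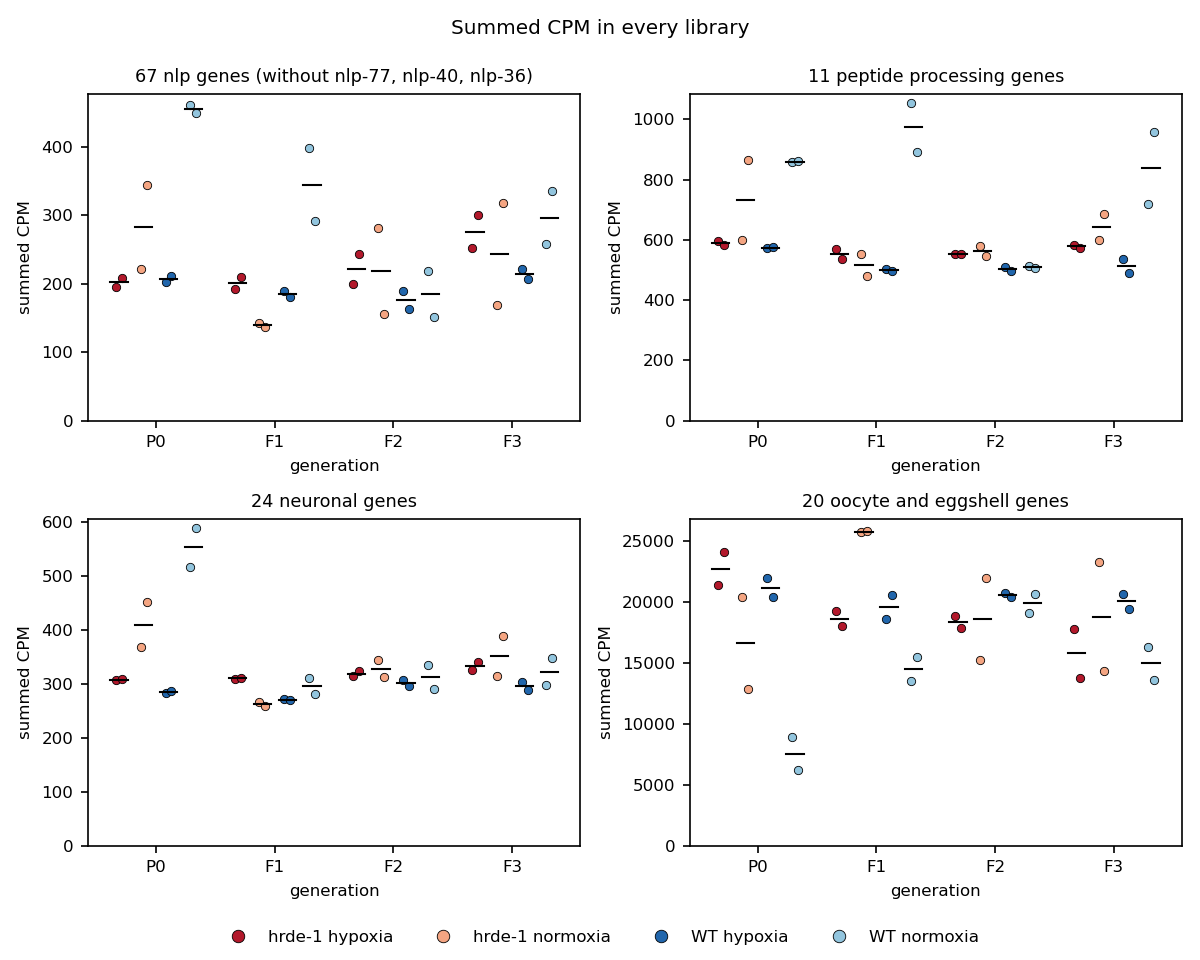
Summed CPM per library (points) with the mean of each group (lines) for 67 nlp genes, 11 processing genes, 24 neuronal genes and 20 oocyte and eggshell genes, by generation from P0 to F3, with F2 WT normoxia as the remainder. The 67 nlp genes sum to 203 and 212 CPM in P0 WT hypoxia and 461 and 449 CPM in P0 WT normoxia, and to 143 and 137 CPM in F1 hrde-1 normoxia and 398 and 292 CPM in F1 WT normoxia.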

How the data were processed

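RNA-seq values were estimated counts per gene, not normalized, in 1 table deposited by the authors; at least 97.8% of values in 30 of its columns are whole. Tools listed in the submitters' processing notes are RSEM, featureCounts, Bowtie2, edgeR and cutadapt 2.5. What each did, and on which genome build, is not given in the sources used here. Per the labels' protocols the library kit adds molecular tags, and whether these were used in counting is not stated. Totals of 9722580 to 16555982 counts set the precision, and intervals and floors (3 counts, 95% level) cover counting error only.

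The F2 WT normoxia columns were tested as means. With F1 and F3 WT normoxia of the same replicate number 0 genes fell below the sum of those libraries, and with any other pairing at least 1434 did. The remainders total 12555703 and 11633862 counts, with 98.3% and 98.2% of values whole within 0.02. The other pairings gave 97.2% to 97.6%, so this share does little to tell a right remainder from a wrong one. Counts were rounded and tested with edgeR 4.0.16 in R 4.3.3 (TMM, filterByExpr by group, quasi-likelihood test) in 30 libraries, or 32 with the remainder for the 2 comparisons that need F2 WT normoxia. Of 46904 genes 15536 were tested, or 15545 with the remainder. Printed CPM come from the scaling of 32 libraries. The fit was tested on simulated data, but the outcome is not given here, so that test adds no support to the p values.

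Groups were taken from the sample titles, and 23 comparisons were made. Named members are those called in a comparison with groups that do not overlap and at least 1 CPM in the higher group, up to 6 per direction, with further members of a family or role. nlp-71 in P0 WT as the smallest p and some called members given as examples were chosen after their values were seen. The members and lists were chosen with earlier results of these data known. Alternatives were DESeq2 size factors, DESeq2 1.42.0's Wald test, no filter, at least 5 CPM in 2 libraries, a replicate block, the compared groups alone, the columns as deposited, the remainder in the fit and each library left out (36 refits). Coordinates are from the Ensembl WBcel235 annotation, matched by gene ID for all 70 members, 6 of which it gives under another symbol.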

Additional observations from a re-analysis of the deposited data

Results flagged for a closer look

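In F1 the change with hypoxia differed between hrde-1 and WT for 15 nlp genes, by a test of the difference itself (an interaction term in edgeR, adjusted p under 0.05), and all 15 differences, hrde-1 minus WT on the log2 scale, were above 0. Of all genes tested, 8.72% were called above 0 and 3.92% below, so all genes leaned the same way. As given above, the count of 15 rests on single libraries. The differences were 1.42 for nlp-9, 1.65 for nlp-13, 1.69 for nlp-6, 1.81 for nlp-38, 1.83 for nlp-14, 1.84 for nlp-21, 1.85 for nlp-11 and 1.89 for nlp-8. They were 2.35 for nlp-53, 2.73 for nlp-37, 2.78 for nlp-35, 2.96 for nlp-71 and 3.34 for nlp-68. For nlp-66 the fitted difference was 8.13 and for nlp-5 it was 8.98, and since both had 0 counts in F1 WT hypoxia these values depend on the prior count and are no bounds.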

How the results depend on the processing

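The number of nlp genes called moved with several choices. With DESeq2's Wald test it was 7 for hypoxia in F3 WT, 2 for hypoxia in F1 hrde-1, 1 for hrde-1 against WT in F2 normoxia and 3 in F2 hypoxia. Without a filter, with all 32 columns as deposited and with the remainder in the fit it was 1 each for hypoxia in F1 hrde-1. For hrde-1 against WT in F2 hypoxia it was 1 without a filter, with at least 5 CPM in 2 libraries and with the remainder in the fit. With the columns as deposited it was 4 for hypoxia in F2 WT, 5 in F3 WT, 2 for hrde-1 against WT in F2 normoxia and in F2 hypoxia, and 1 in P0 hypoxia. With the 5 CPM filter it was 0 for hypoxia in P0 hrde-1. Fitted on the compared groups alone, it was 0 for hypoxia in P0 hrde-1, for hrde-1 against WT in P0 and in F3 normoxia and for later generations in hrde-1 normoxia. In the same way it was 6 for hypoxia in F1 hrde-1, 1, 1, 4 and 2 for hrde-1 against WT in P0, F1, F2 and F3 hypoxia, 13 for later generations in WT hypoxia, 8 in hrde-1 hypoxia and 29 for the F1 interaction. The cause was not tested.

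Leaving out 1 library in turn, the remaining library of its group is assumed to vary like the other groups. Calls then ran from 5 to 12 for hypoxia in P0 WT, from 6 to 19 in F1 WT, from 0 to 0 in F2 WT and from 0 to 3 in F3 WT. In hrde-1 they ran from 0 to 6 in P0, from 0 to 0 in F1 and F2 and from 0 to 3 in F3. For hrde-1 against WT in normoxia they ran from 0 to 17 in P0, from 10 to 26 in F1, from 0 to 4 in F2 and from 0 to 9 in F3, and in hypoxia from 0 to 0 in P0 and F1 and from 0 to 1 in F2 and F3. For later generations they ran from 3 to 10 in WT normoxia, from 1 to 4 in WT hypoxia, from 0 to 28 in hrde-1 normoxia and from 2 to 4 in hrde-1 hypoxia. For the interaction they ran from 0 to 1 in P0, from 2 to 14 in F1 and from 0 to 8 in F3.

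With the replicate block 28 members were called for hypoxia in P0 WT, and of 53 named values 51 passed as before and 2 (nlp-73 in F3 WT and nlp-71 in P0 normoxia) did not. Correlations of the replicate differences between compared groups ran from -0.116 to 0.404, and over all 105 pairs of groups from -0.518 to 0.404. Such correlations cannot decide whether the replicate numbers pair samples, which is not known. Over all alternatives the 53 named values gave 690 values, of which 536 stayed past the threshold, 154 did not and 0 changed sign. That total pools the refits without a library with settings that kept all 53 values, such as DESeq2 size factors and the columns as deposited. The named values were also chosen as calls of the main fit. Depth limits the weakest genes, since 18 of 59 members had a median under 1 CPM.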
